A study of Saccharomyces cerevisiae with 4 samples.

Results

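Assembly factors of the respiratory complexes are proteins that build the cytochrome bc1 complex (complex III), cytochrome c oxidase (complex IV) and the ATP synthase (complex V) without staying in the finished enzymes. The 40 genes described here are a named set within that definition, structural subunits left out. The set is not complete, and it was chosen with earlier results of these data known. Each gene was found by the symbol that the array annotation gives its probe set. All 40 had a single probe set and passed the filter on detection, among 5330 genes tested in all. Transcripts were measured in the yeast Saccharomyces cerevisiae on 4 one-colour Affymetrix arrays. The wild type was the laboratory strain W303-1A (labelled WT or W303, genotype wild type), and the other strain, labelled SSG1, was the long-lived SSG1-1 mutant. There were 2 arrays per strain, with the numbers 1 and 2. Both strains were kept in YPD at 25 °C, pre-grown in SDC at pH 6.0 and then grown for 12 h in fresh SDC of the same pH to early-log phase, so no group was grown on a respiratory carbon source or treated with an agent. The labels do not say which gene carries SSG1-1, whether the mutant was 1 clone, or whether the arrays of a strain are from different cultures. Errors and p-values therefore cover only the spread seen between arrays, and that spread may be technical.

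In yeast a few membrane-embedded subunits of these complexes are encoded in mitochondrial DNA and made on mitochondrial ribosomes, while the remaining subunits and the assembly factors described here are encoded in the nucleus and imported. Translational activators bind single mitochondrial mRNAs and hold them at the inner membrane, insertases place the new proteins in the membrane, and chaperones add heme and copper and join the subunits. Loss of most of these factors leaves cells able to ferment glucose but unable to grow by respiration.

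Setting SSG1-1 beside the wild type asks how gene expression differs in a long-lived strain. Transcripts of the assembly factors were slightly higher in the mutant as a set, by a median log2 difference of 0.27, where all 5376 tested probe sets had a median of -0.02. For 25 of the 40 genes the lower mutant array exceeded the higher wild-type array (called higher without overlap below), and for 0 the reverse held. Over all probe sets these shares were 14.0% and 18.0%. The median was 0.25 between the arrays numbered 1 and 0.30 between the arrays numbered 2. None of the 40 passed limma's test after adjustment over all probe sets (lowest adjusted p = 0.936), a threshold that 0.0186% of probe sets, 1 in number, passed. At an unadjusted p under 0.05, 6 members were higher and 0 lower, against 2.72% and 1.80% of all probe sets. Those 6 became 5 with each array centred on its median and 9 without limma's mean-variance trend, beside 132 and 151 of all 5376 probe sets. In the deposited values the 6 became 0, beside 41 of all probe sets. Leaving out 1 array at a time changed the sign for 12 of the 40 and gave members' medians from 0.24 to 0.27. In the deposited fit each variance was set by signal level alone, without the spread of a gene's own arrays. Scaling and variance thus changed together there. The members were chosen with results of these data known, and no test was made of the set.

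The count depended on how the arrays were scaled. The deposited arrays differed in level, so signals were quantile-normalized, and every value below is a signal or log2 difference after that step unless called deposited. In the deposited values all tested probe sets had a median of -0.15 and the members a median of 0.11. There 6 members were higher without overlap and 2 lower, and the shares of all probe sets were 3.40% and 22.3%. In both scalings 37 of the 40 lay above the median of all probe sets. Centring each deposited array on its median shifts all differences alike, so it could not change that count.

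Signals of different probe sets cannot be compared, and bulk RNA cannot tell a change in every cell from a change in some of them. The median deposited signal of the yeast probe sets was between 874 and 1171 on the 4 arrays, and that of probe sets for another organism between 4.8 and 5.3. The a-cell receptor gene STE2 had signals between 12655 and 13873 and the alpha-cell receptor gene STE3 between 48.0 and 110.2. Of the other alpha-cell markers, MF(ALPHA)1 had between 17.9 and 54.9, MF(ALPHA)2 between 70.0 and 95.4, and SAG1 between 758 and 1236. Free of overlap between strains were 0 of 4 alpha-cell markers and 2 of 5 a-cell markers, both lower in the mutant. Over all probe sets 14.0% were higher and 18.0% lower without overlap. Of 10 control transcripts with probe sets at both ends, the ratio of 3′ to 5′ signal was lower on both mutant arrays for 3 and higher for 1. For SRB4, for example, it was 18.5 and 17.1 in wild-type cells and 10.2 and 13.5 in mutant cells. The part of these ratios in the results below was not tested.

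**Figure D1:**
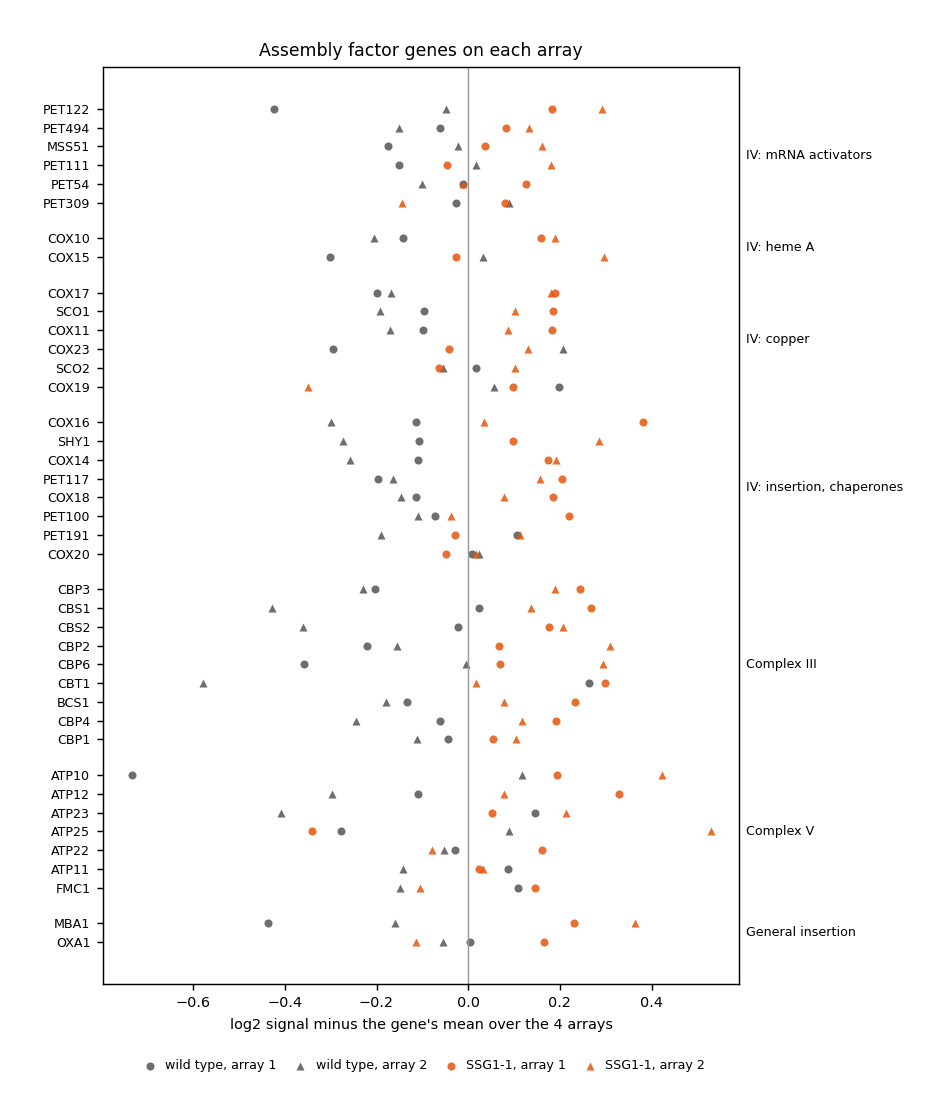
Log2 signal of each assembly factor gene on the 4 arrays, as the distance from that gene's mean over the arrays, grouped by role. Grey marks are wild type and orange marks SSG1-1, circles for arrays numbered 1 and triangles for arrays numbered 2. For 25 of the 40 genes both orange marks lie right of both grey marks.

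The factors of complex III had the narrowest range of the complexes compared. Of the 9 genes, 8 were higher in the mutant without overlap, against 14.0% of all probe sets. The median log2 difference of the 9 was 0.36, with a range from 0.16 to 0.43. All 9 were positive within number 1 and within number 2. CBP3 (YPL215W) encodes a chaperone that binds the exit of the mitochondrial ribosome and newly made cytochrome b. Its signals were 2762 and 2711 in wild-type cells and 3763 and 3625 in mutant cells. The arrays of a strain lay close together and the strains were apart, at a log2 difference of 0.43 ± 0.10 (SE, n = 2 arrays per strain, as for all differences below; limma adjusted p = 0.936). CBP6 (YBR120C), its partner in that complex, had a difference of 0.36 ± 0.18 and did not overlap either, and CBP4 (YGR174C), which joins cytochrome b at the next step, stood at 0.31 ± 0.16.

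CBS1 and CBS2 are both translational activators of COB, the mitochondrial mRNA for cytochrome b. CBS1 (YDL069C) had signals of 723 and 529 in wild-type cells and 857 and 782 in mutant cells, a log2 difference of 0.40 ± 0.20. CBS2 (YDR197W) had 1060.3 and 839.6 in wild-type cells and 1216 and 1243 in mutant cells, at 0.38 ± 0.17. In both, the wild-type array numbered 2 was the lowest of the 4, so that the difference was larger within number 2 (0.56 and 0.57) than within number 1 (0.25 and 0.20). CBP2 (YHL038C), needed to splice an intron of COB, had 172 and 179.8 in wild-type cells and 209.7 and 248 in mutant cells, at 0.38 ± 0.18 and with no overlap.

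CBP1 (YJL209W), which stabilizes COB mRNA, stood lowest of the group at 0.16 ± 0.16. CBT1 (YKL208W), which acts in the processing of that mRNA, was the only overlapping member, at 0.31 ± 0.32. It was 0.03 within number 1 and 0.60 within number 2, and without the wild-type array numbered 2 it was negative, at -0.11. BCS1 (YDR375C), the AAA protein that moves the Rieske protein across the inner membrane as the last subunits join, had 0.31 ± 0.14 with no overlap. Without the wild-type array numbered 2 the median of the group was 0.22.

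The 22 factors of complex IV had a median log2 difference of 0.24, with 14 higher on both mutant arrays, against 14.0% of all probe sets. By role, 4 of the 6 mRNA activators, 1 of the 2 heme A genes, 3 of the 6 copper genes and 6 of the 8 genes for insertion and chaperones were higher without overlap. The group held the 3 negative members of the whole set, PET309, COX19 and COX20 (YDR231C), and all 3 overlapped between strains.

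Translational activators act on the mitochondrial mRNAs for subunits of cytochrome c oxidase. The 6 genes of this kind had a median log2 difference of 0.17, and of 0.0019 in the deposited values. Of the 6, 4 were higher without overlap, against 14.0% of all probe sets. PET122 (YER153C), one of 3 activators of COX3 mRNA, had signals of 39.9 and 51.7 in wild-type cells and 60.7 and 65.4 in mutant cells, at 0.47 ± 0.28. It was dim, its wild-type detection call was absent, and it passed the filter through the mutant's call. Without it 24 of 39 members were higher with no overlap, and the median stayed at 0.27. PET494 (YNR045W), another activator of COX3, had 299.9 and 282 in wild-type cells and 331 and 343 in mutant cells (0.21 ± 0.15). The third, PET54 (YGR222W), stood at 0.11 ± 0.13, positive here and negative in the deposited values. The differences of PET494 and PET54 were within 1.5 SE of 0, though neither overlapped.

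MSS51 (YLR203C) binds COX1 mRNA for its translation and then the new Cox1 protein itself. Its signals were 3112 and 3458 in wild-type cells and 3600.1 and 3926 in mutant cells, at 0.20 ± 0.12. The array numbered 2 was the higher in each strain, and the differences within numbers were alike, at 0.21 and 0.18. PET111 (YMR257C), the activator of COX2 mRNA, had 683 and 767 in wild-type cells and 734 and 859.9 in mutant cells. These overlap, and the difference of 0.13 ± 0.16 was negative in the deposited values. PET309 (YLR067C), the other COX1 activator, was at -0.06 ± 0.19, with 0.11 within number 1 and -0.23 within number 2.

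Heme A, a cofactor of cytochrome c oxidase, is made from heme B in 2 steps. COX10 (YPL172C), which catalyses the former, had 1115 and 1067 in wild-type cells and 1373 and 1403 in mutant cells. The strains were apart by 0.35 ± 0.13, at 0.30 within number 1 and 0.39 within number 2, and COX10 was among the 6 members with an unadjusted p under 0.05. COX15 (YER141W), heme A synthase, had 3332 and 4199 in wild-type cells and 4034 and 5039.5 in mutant cells. Wild-type array 2 exceeded mutant array 1, so the strains overlap, but the difference was 0.28 within number 1 and 0.26 within number 2 (0.27 ± 0.17 in all). Leaving out 1 array at a time gave from 0.10 to 0.44. For COX15 the gap between numbers, -0.33 for number 1 minus number 2, was larger than that between strains.

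Copper reaches cytochrome c oxidase from Cox17 in the intermembrane space, through Sco1 to the site in Cox2 and through Cox11 to the site in Cox1. These 3 of the 6 copper genes were higher without overlap, against 14.0% of all probe sets, and the median of the 6 was 0.18. COX17 (YLL009C) had 1084 and 1107 in wild-type cells and 1419 and 1411 in mutant cells, a spread within each strain far smaller than the difference of 0.37 ± 0.13. SCO1 (YBR037C) had 926 and 867 in wild-type cells and 1125 and 1063 in mutant cells, at 0.29 ± 0.13. COX11 (YPL132W) had 1081 and 1029 in wild-type cells and 1314 and 1229.7 in mutant cells, at 0.27 ± 0.13. The differences of SCO1 and COX11 were nearly the same within both numbers, at 0.28 and 0.29 for SCO1 and 0.28 and 0.26 for COX11.

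The other 3 members of the copper group overlapped. SCO2 (YBR024W), a relative of SCO1 that yeast does not need for respiration, was at 0.04 ± 0.14 and negative in the deposited values. Its 95% interval, from -0.33 to 0.41, includes the value of SCO1, so the relatives are not shown to differ. COX19 and COX23 encode small intermembrane space proteins related to Cox17. COX19 (YLL018C-A) had 771 and 699 in wild-type cells and 719 and 527 in mutant cells. It was the most negative of the 40, at -0.25 ± 0.20, and was negative within both numbers (-0.10 and -0.41). Without the mutant array numbered 2 it was at -0.03. COX23 (YHR116W) stood at 0.09 ± 0.23, negative in the deposited values and of opposite signs within the numbers.

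**Figure D2:**
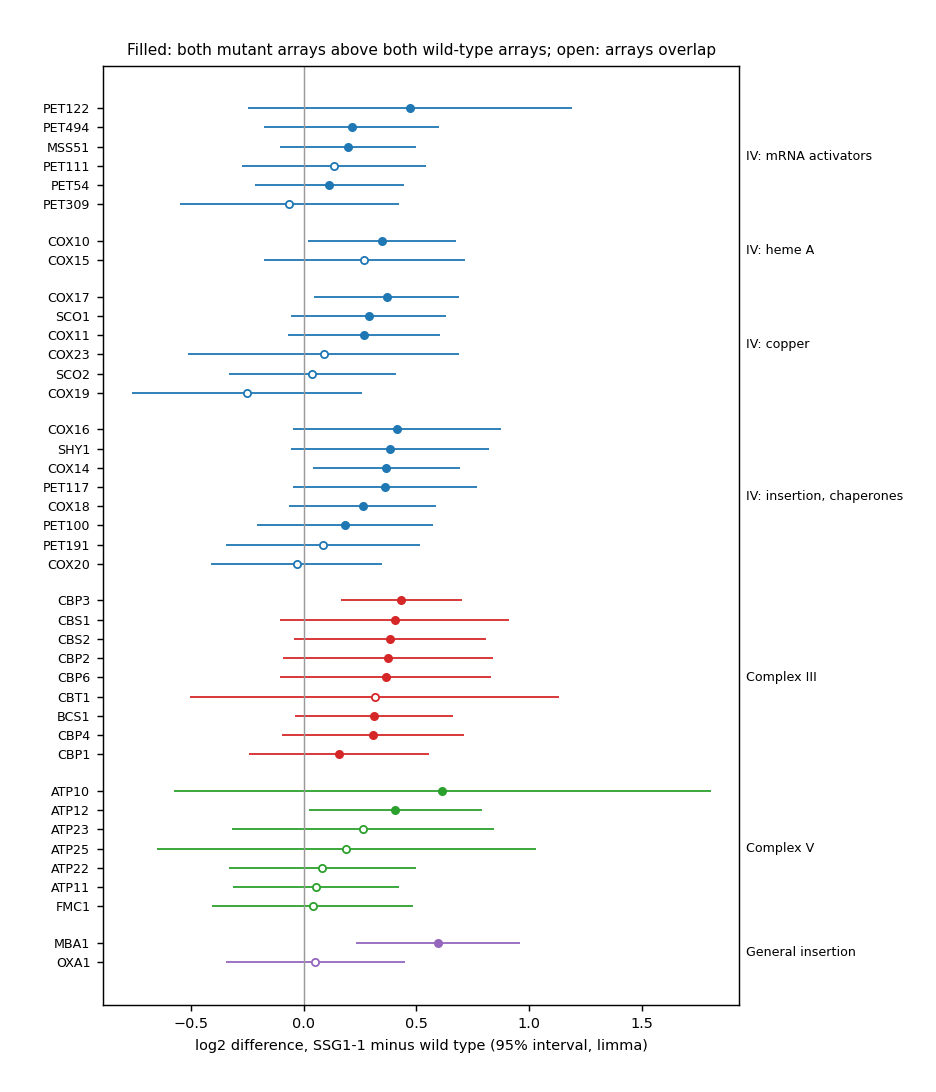
Log2 difference of each assembly factor gene, SSG1-1 minus wild type, with limma's 95% interval, grouped by role and coloured by complex (blue IV, red III, green V, purple general insertion). Filled points are higher in the mutant without overlap, and 6 of the 40 intervals exclude 0, all of them on the positive side.

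The 8 genes for insertion and chaperones of complex IV had a median of 0.31. COX16 (YJL003W), which acts in joining Cox1 and Cox2, had 735 and 647 in wild-type cells and 1036 and 815 in mutant cells, at 0.41 ± 0.18. The mutant array numbered 1 stood above the other mutant array. SHY1 (YGR112W), the relative of human SURF1 that helps mature Cox1, had 259 and 231 in wild-type cells and 299 and 341 in mutant cells, at 0.38 ± 0.17. COX14 (YML129C), which binds new Cox1 and takes part in the feedback on its translation, had 1802 and 1625 in wild-type cells and 2194 and 2221 in mutant cells. Its difference was 0.37 ± 0.13, at 0.28 and 0.45 within numbers 1 and 2. PET117 (YER058W), which works with the heme A pathway, had 204 and 208 in wild-type cells and 269 and 260.3 in mutant cells, at 0.36 ± 0.16, with the arrays of each strain close together.

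COX18 (YGR062C), a relative of Oxa1 that exports the tail of Cox2, was at 0.26 ± 0.13, and PET100 (YDR079W), which acts on a late subassembly, at 0.18 ± 0.15, both with no overlap. PET191 (YJR034W) stood at 0.08 ± 0.17, negative in the deposited values, with -0.14 within number 1 and 0.30 within number 2. COX20, the chaperone of Cox2 that follows its insertion, had signals between 317 and 334 on all 4 arrays and a difference of -0.03 ± 0.15 (95% interval from -0.41 to 0.35).

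All 7 factors of complex V had a positive difference here, with a median of 0.19. But 2 were higher without overlap, against 14.0% of all probe sets. Within the numbers 4 had opposite signs, as had 1767 of all 5376 probe sets. Between the arrays numbered 1 the median was 0.04 and between those numbered 2 it was 0.30. It was 0.07 without the wild-type array numbered 2, and 0.046 in the deposited values. ATP12 (YJL180C), the chaperone of the F1 alpha subunit, had 2149 and 1888 in wild-type cells and 2914 and 2447 in mutant cells. It was at 0.41 ± 0.15, with 0.44 and 0.37 within the numbers. ATP11 (YNL315C), the chaperone of the F1 beta subunit, overlapped at 0.06 ± 0.14, with a 95% interval from -0.31 to 0.42 and a negative value in the deposited signals. The intervals of ATP12 (0.02 to 0.79) and ATP11 overlap, and the difference between them was not tested. FMC1 (YIL098C), which supports Atp12 in building F1, was at 0.04 ± 0.17, negative in the deposited values.

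ATP10 (YLR393W), which brings Atp6 to the ring of Atp9, had the largest difference of the 40, 0.62 ± 0.46, on dim signals, at 12.7 and 23.0 in wild-type cells and 24.2 and 28.4 in mutant cells. Wild-type array 2 was closer to both mutant arrays than to wild-type array 1, and the interval ran from -0.58 to 1.81. Without wild-type array 1 the difference of ATP10 was 0.19, and without wild-type array 2 it was 1.04. ATP23 (YNR020C), which both cuts the Atp6 precursor and helps assemble it, had 650.5 and 443 in wild-type cells and 609 and 681 in mutant cells (0.26 ± 0.23), where 1 low wild-type array set the sign. Without that array it was at -0.015. ATP25 (YMR098C), needed for the mRNA of Atp9, had 406 and 524 in wild-type cells and 389 and 710.5 in mutant cells (0.19 ± 0.33), and without the mutant array numbered 2 it was at -0.25. ATP22 (YDR350C), the activator of ATP6 mRNA, stood at 0.08 ± 0.16, negative in the deposited values.

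The general machinery of membrane insertion split as well. MBA1 (YBR185C), a receptor that holds mitochondrial ribosomes at the inner membrane, had 2361 and 2860 in wild-type cells and 3747 and 4111 in mutant cells. This 1.51-fold difference (log2 0.59 ± 0.14, limma adjusted p = 0.936) was the largest among members with signals above 100 on every array, at 0.67 and 0.52 within the numbers. Of all 5376 probe sets, 100 had a larger positive difference. OXA1 (YER154W), the insertase that takes over the new chain, had 1141 and 1096 in wild-type cells and 1276 and 1053 in mutant cells. It overlapped at 0.05 ± 0.15, had opposite signs within the numbers, and was negative in the deposited values.

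**Figure D3:**
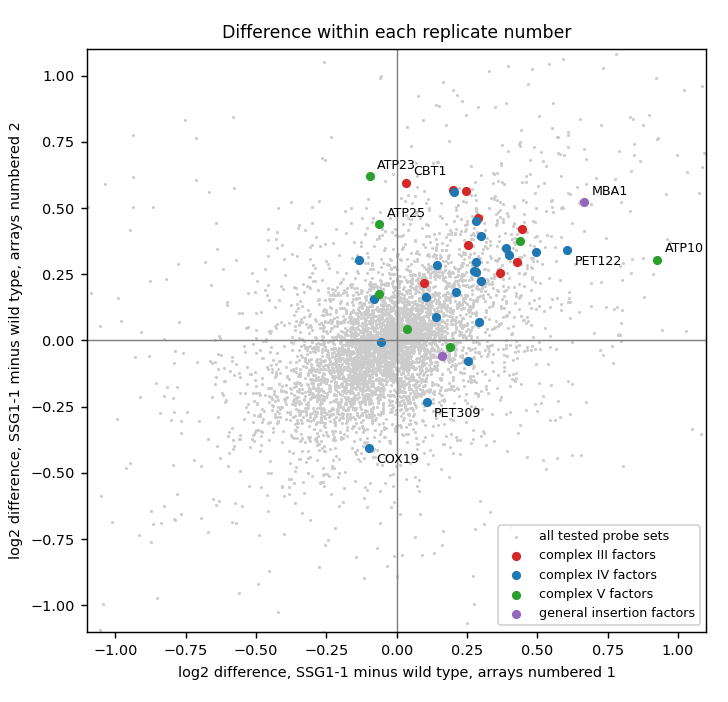
Log2 difference of SSG1-1 minus wild type between the arrays numbered 1 (horizontal) and between those numbered 2 (vertical), with all tested probe sets in grey (69 lie beyond the axes) and the assembly factors coloured by complex. Of the 40 members, 29 are positive on both axes and 2, COX19 and COX20, negative on both.

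Within both replicate numbers the mutant was higher for 29 of the 40 members and lower for 2, where the shares of all probe sets were 29.9% and 36.4%. The remaining 9 had opposite signs, as had 1767 of all 5376 probe sets. For 12 of the 40 members the difference between numbers was larger in size than that between strains. The same held for 3360 of the 5376 probe sets. The 6 with an unadjusted p under 0.05 were MBA1, CBP3, COX17, COX14, COX10 and ATP12, 1 or more from each complex. The median standard error of a member's difference was 0.16 on the log2 scale, and the median difference was 0.27.

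The subunits that these factors assemble were compared with them. Of 32 nuclear structural subunits of complexes III, IV and V, 31 were higher on both mutant arrays, against 14.0% of all probe sets. The median log2 difference of the 32 was 0.30. At an unadjusted p under 0.05 in limma's test 22 were higher, against 2.72% of all probe sets. By complex the subunits had medians of 0.39, 0.26 and 0.28, and the factors 0.36, 0.24 and 0.19. The median standard error was 0.089 for subunits and 0.16 for factors. CYT1, cytochrome c1, had 5307 and 4857 in wild-type cells and 7949 and 6875 in mutant cells (0.54 ± 0.11), and COR1, a core protein of complex III, was also at 0.54 (± 0.20). The difference between factors and subunits was not tested. In the deposited values the medians were 0.17 for the subunits and 0.11 for the factors.

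**Figure D4:**
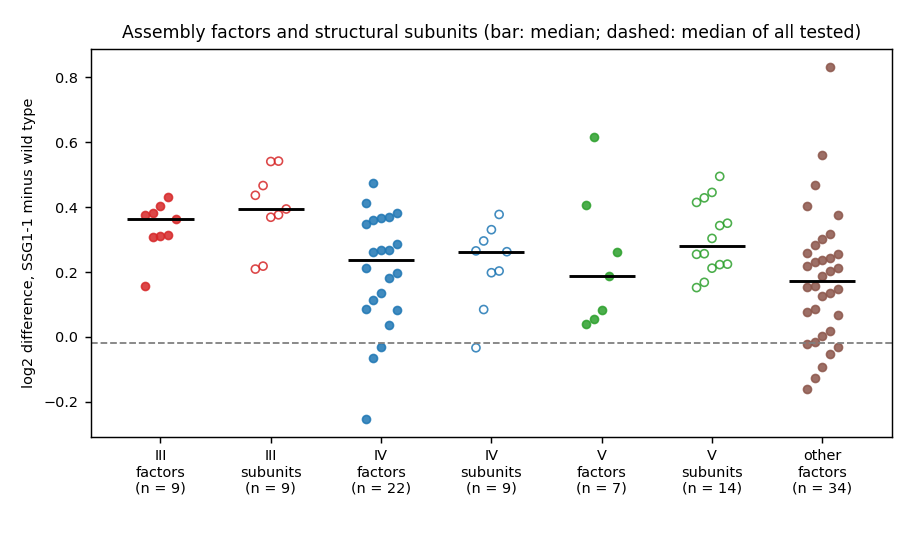
Log2 difference of SSG1-1 minus wild type for each assembly factor (filled) and each nuclear structural subunit (open) of complexes III, IV and V, and for 34 other factors. Bars are medians and the dashed line is the median of all tested probe sets, -0.02. The factors of complex III sit in a narrow band from 0.16 to 0.43, those of complex V spread from 0.04 to 0.62.

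Another 34 genes that act in making or maturing these complexes had a median of 0.17, and of 0.01 in the deposited values. Of these, 15 (44.1%) were higher without overlap and 0 lower, where the shares of all probe sets were 14.0% and 18.0%. COA2, a chaperone of cytochrome c oxidase that acts near Shy1, had 281 and 389 in wild-type cells and 575 and 604 in mutant cells. At 0.83 ± 0.20 it exceeded all 40 members, with an adjusted p of 0.936 in limma's test. MAM33, a mitochondrial matrix protein, was at 0.56 ± 0.16. HAP4, the activating subunit of the Hap complex that drives nuclear respiratory genes, had 1139.8 and 889.8 in wild-type cells and 1696 and 1455 in mutant cells (0.64 ± 0.18), while HAP1, the heme-responsive activator, was lower on both mutant arrays at -0.25 ± 0.15. HAP5, a DNA-binding subunit of the Hap complex, was also lower on both, at -0.22 ± 0.20. The mitochondrially encoded genes that the activators serve had no probe set named in the annotation used and were not analysed here.

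Neighbouring genes were sought among the members, the structural subunits and the other factors, without the regulators and cell-type markers. In the reference annotation 4 pairs joined an assembly factor to another gene of the lists searched. CBS1 (0.40) lies beside COX9 (0.30), PET122 (0.47) beside OXA1 (0.05), MSS51 (0.20) beside QRI5 (0.25), and PET111 (0.13) beside COX7 (0.33), each value being the log2 difference of that gene. Only in the pair of CBS1 and COX9 were both genes higher in the mutant without overlap.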

How the data were processed

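The authors deposited a linear signal intensity for each probe set and array. The submitters' processing notes name GCOS with no version, while background correction and scaling target were not given in the sources used here. Values of the 4 arrays were taken from the series table. The deposited MAS5 table gave detection calls for 1 array per strain, whose values were identical in all 10928 probe sets to replicate 2, and 4 of its columns, with headers that name no sample, were not used. Gene names came from the platform annotation, with symbols updated to the R64 reference. Of 5498 named for 1 S. cerevisiae gene, 5376 had a present call in at least 1 usable column and were tested. Signals below 0.1 were set to 0.1, log2 was taken, and arrays were quantile-normalized, because 2% trimmed means of the deposited signal ran from 1034 to 1298. Limma 3.58.1 in R 4.3.3 (lmFit, eBayes with trend) compared 2 arrays with 2, with Benjamini-Hochberg adjustment over all tested probe sets and a threshold of 0.05. The fit was tested on simulated data with independent arrays and planted changes larger than any member's difference. That test does not cover changes of the members' size. Alternatives were other scalings, filters, floors and priors, a replicate block, and leaving out each array. The number of arrays limits the precision. The members and lists were chosen with earlier results of these data known. In each role group the 4 members with the largest absolute difference are given array by array, and of other lists up to 2 genes in each direction that do not overlap, plus HAP4. No sequences are shown. Figures were drawn with matplotlib 3.10.9.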

Additional observations from a re-analysis of the deposited data

How the results depend on the processing

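Medians over the 40 members and over each complex kept their sign in the deposited values, with median centring and with each array left out. The other alternatives leave the members' log2 differences as they are, so the medians could not move in them. In the values as deposited, 6 probe sets were called. At an unadjusted p under 0.05 in limma's test stood 0 members, with 41 of all probe sets higher and 39 lower. Without overlap 6 members were higher and 2 lower, and the medians were 0.11 over the members and 0.087 over complex IV. There ATP11 (-0.10), ATP22 (-0.043), COX23 (-0.0089), FMC1 (-0.13), OXA1 (-0.10), PET111 (-0.030), PET191 (-0.095), PET54 (-0.037) and SCO2 (-0.11) were negative, while the median of all probe sets was -0.15. With median centring 4 probe sets were called and 25 members were higher without overlap and 1 lower (13.3% and 15.05% of all probe sets). At an unadjusted p under 0.05 in limma's test 5 members were higher there, with 132 of all probe sets. Without the mean-variance trend 0 probe sets were called by limma. At an unadjusted p under 0.05, 9 members were then higher and 0 lower, with 151 and 129 of all probe sets. The deviations of arrays with the same number from their strain means had a correlation of 0.634 over 5376 probe sets, but with 2 pairs and labels that do not say what a number marks, they are not taken as pairs. With a replicate block limma called 828 probe sets, 7.94% higher and 7.46% lower, and 15 members, all higher (22 higher and 1 lower at an unadjusted p under 0.05, with 661 and 758 of all 5376 probe sets). In that fit and in the fit of the deposited values, each variance came from the trend alone. The spread of a gene's own arrays did not enter either fit. Leaving out 1 array at a time gave 2 to 4 called probe sets, 1 to 5 members higher at an unadjusted p under 0.05, and 28 to 31 members higher and 2 to 4 lower without overlap. With 3 arrays, between 29.04% and 31.38% of all probe sets were higher without overlap and between 32.81% and 39.19% lower. The lone array left in a strain is assumed to vary like the others, so no count at a p-value is given for these fits. For 12 members the sign changed, with ranges from -0.059 to 0.17 for ATP11, -0.037 to 0.20 for ATP22, -0.015 to 0.54 for ATP23, -0.25 to 0.62 for ATP25, -0.11 to 0.74 for CBT1, -0.065 to 0.0020 for COX20, -0.16 to 0.34 for COX23, -0.089 to 0.17 for FMC1, -0.087 to 0.19 for OXA1, -0.065 to 0.23 for PET191, -0.18 to 0.048 for PET309 and -0.044 to 0.12 for SCO2. Leaving out the detection filter, a floor of 10 or averaging probe sets of a gene changed none of these calls, and could not change the members' signs. The cause of these shifts was not tested.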
